A study of Mus musculus with 24 samples.

Results

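MHC class II molecules present peptides from engulfed material to CD4+ T cells. The class II genes and their transactivator were examined in 4 sorted myeloid populations of mouse colon lamina propria (LP) and colon tumours. The 10 genes were taken by name: Ciita, the structural chains H2-Aa, H2-Ab1 and H2-Eb1, the invariant chain Cd74, the peptide-loading chains H2-DMa, H2-DMb1 and H2-DMb2, and the chains of their inhibitor, H2-Oa and H2-Ob. All 10 were among the 17301 genes of the deposited table, and all 10 were among the 12878 genes tested, those with a mean of at least 1 RPKM (a read count divided by gene length and by library size) in at least 1 group.

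Class II alpha and beta chains pair in the endoplasmic reticulum around the invariant chain, which fills the groove and directs the complex to endosomes. There proteases degrade the invariant chain, H2-DM exchanges the remaining fragment for antigenic peptide, and H2-O holds H2-DM back. Transcription of these genes depends on Ciita, a coactivator that does not bind DNA itself and is recruited by factors sitting on conserved promoter boxes. Interferon gamma is the best known inducer of Ciita in macrophages, and resident macrophages of the colon carry high surface MHCII in the steady state.

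The 24 libraries formed 8 groups of 3. F4/80hi MHCIIhi macrophages, F4/80hi MHCIIlow macrophages, monocytes (F4/80int Ly6Chi, negative for MHCII) and neutrophils (Ly6Ghi, negative for F4/80) came from the LP of C57BL/6J mice, named C57/BL in the labels, and from colon tumours of ApcMin/+ mice, named APC/Min, which carry 1 mutant copy of the Apc tumour suppressor in every cell. The study describes dextran sodium sulphate in drinking water for 1 week at 6 to 8 weeks of age in both strains. Its dose was higher in the ApcMin/+ than in the C57BL/6J mice. Collection followed 4 weeks later, at 3 to 4 months. The labels call the LP healthy. Cells were sorted from pools of 13 to 15 mice in 3 experiments, and the labels give libraries of several populations the same donor number within a tissue, so the 24 libraries are not 24 separate pools. The limma p-values rest on the spread between the 3 libraries of a group, pooled for each gene over all 8 groups. Dendritic cells, high for CD11c and MHCII, were excluded before sorting. The tissues were digested and enriched by different protocols, so tissue, strain, dose and isolation cannot be told apart. Because MHCII protein set the macrophage and monocyte gates, class II differences between MHCIIhi and MHCIIlow macrophages describe the sort, and they are given below as such.

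Library depth lay between 12838100 and 41718100 reads in genes, with a median of 26389150 (rounded to 100 reads per library). The sorting markers followed the labels for the most part. Adgre1, which encodes F4/80, had mean levels of 441.7 and 403 RPKM in MHCIIhi macrophages of LP and tumour and 28.0 and 52.1 RPKM in the neutrophils. Ly6g, which encodes the neutrophil marker, had mean levels of 67.5 and 281 RPKM in the neutrophils and 0 reads in every MHCIIhi library. Ly6c2, which encodes Ly6C, did not set monocytes apart, with mean levels of 70.3 and 61.3 RPKM there and 50.9 and 89.2 RPKM in the neutrophils.

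The 4 tumour libraries of donor V stood apart at the class II locus itself. H2-Ea-ps (chr17:34341959-34344645, minus strand, GRCm38), annotated as a polymorphic pseudogene, is the E alpha gene, which C57BL/6 mice do not transcribe because of a promoter deletion. Its level in donor V was 117 RPKM in MHCIIhi macrophages, 4.28 in MHCIIlow macrophages, 8.68 in monocytes and 8.94 in neutrophils. The other 20 libraries lay between 0.0808 and 3.32 RPKM, with a median of 0.458. In each population the tumour donor V library exceeded all of these 20, and none of the 986 stretches of 51 bases in the annotated transcripts of H2-Ea-ps recurred in another gene. Why this pool differs was not tested. Without its 4 libraries the members called, tumour against LP, numbered 1 in MHCIIhi macrophages, 4 in MHCIIlow macrophages, 1 in monocytes and 5 in neutrophils, against 1, 5, 1 and 7 with them.

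**Figure D1:**
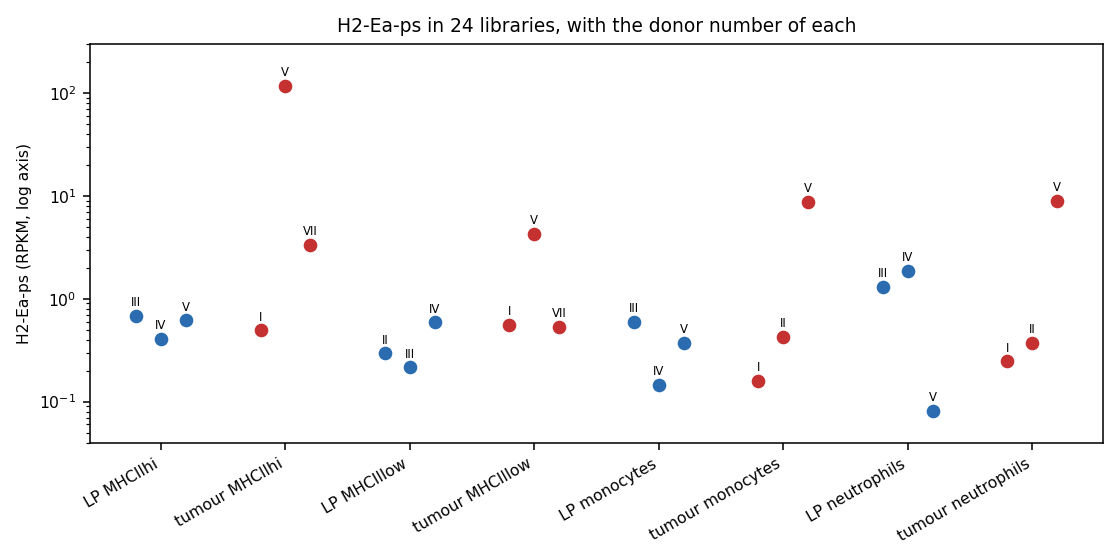
H2-Ea-ps in 24 libraries, in RPKM on a log axis, with populations along the x axis and the donor number beside each point. The 4 tumour libraries of donor V reach 4.28 to 117 RPKM, above the 0.0808 to 3.32 RPKM of the other 20 libraries.

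Of the 10 genes, 8 lie within the class II region of chromosome 17, from H2-Oa at 34092340 to H2-Eb1 at 34316674 (GRCm38, GENCODE M21). RefSeq promoters of 300 bases, 250 before and 50 after the start (GRCm38.p6), were matched for 7 members. H2-DMa had 2 annotated starts, with GATTGG 199 bases before one and neither spelling at the other. The 64-base windows below are those of 6 members around the Y box, an inverted CCAAT element bound by NF-Y. They are shown because factors bound at the X and Y boxes recruit Ciita. Capitals mark GATTGG, a spelling of the Y box, and AACNNATGATG, a spelling of the X box, both read on the gene's own strand.
H2-Oa: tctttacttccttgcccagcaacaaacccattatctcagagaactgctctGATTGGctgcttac
H2-DMb2: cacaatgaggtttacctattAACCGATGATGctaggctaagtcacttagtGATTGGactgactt
H2-DMb1: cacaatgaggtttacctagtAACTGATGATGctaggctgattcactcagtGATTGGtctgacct
H2-Ob: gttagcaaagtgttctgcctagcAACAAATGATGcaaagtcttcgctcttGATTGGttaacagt
H2-Aa: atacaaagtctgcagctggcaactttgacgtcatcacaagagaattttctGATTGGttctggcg
H2-Eb1: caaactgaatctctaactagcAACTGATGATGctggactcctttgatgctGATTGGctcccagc

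The windows lie at chr17:34092285-34092348 (H2-Oa), chr17:34145108-34145171 (H2-DMb2), chr17:34153079-34153142 (H2-DMb1), chr17:34238797-34238860 (H2-Ob), chr17:34287859-34287922 (H2-Aa, minus strand) and chr17:34305757-34305820 (H2-Eb1). GATTGG began 44 to 91 bases before the start in these 6 genes. Searched on both strands, GATTGG occurred in 16.1% and AACNNATGATG in 0.137% of 32851 RefSeq promoters of the same length, and both together in 0.0335%, which is 11 promoters. H2-DMb2, H2-DMb1, H2-Ob and H2-Eb1 held both, with 16 to 19 bases between them, whereas H2-Oa and H2-Aa held only GATTGG. The near-identical windows of H2-DMb1 and H2-DMb2 went with shared transcript sequence, since 22.3% of the 51-base stretches of H2-DMb1 and 25.4% of those of H2-DMb2 recurred elsewhere, mostly in each other. Values of these neighbours are therefore uncertain where reads could be split between them. Exons of H2-Oa and H2-DMa overlap on the opposite strand with BC051537 (22.8% of exon bases) and Brd2 (10.4%), and since the library method does not mark strand, such reads cannot be told apart. The letters were chosen after the sequences had been seen, and a match is a description only. Ciita, Cd74 and H2-Ab1 had no entry.

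Ciita and the structural chains were ordered differently over the 8 groups. Ciita was highest in tumour MHCIIhi macrophages, with levels of 33.5, 28.7 and 33.5 RPKM in the 3 libraries, and second in LP MHCIIhi macrophages, with 15.5, 13 and 9.21 RPKM. Tumour MHCIIlow macrophages (9.30, 6.34 and 4.53 RPKM) overlapped with LP MHCIIhi macrophages and with LP monocytes (5.77, 6.42 and 5.91 RPKM). Tumour monocytes (1.56, 1.79 and 3.47 RPKM) overlapped with LP MHCIIlow macrophages (1.79, 2.52 and 1.37 RPKM). Neutrophils were lowest, at 0.735, 0.398 and 0.968 RPKM in LP and 0.246, 0.282 and 0.349 RPKM in tumours, the last group resting on 12 to 16 reads per library. Ciita thus spanned populations gated as MHCII negative as well as MHCIIhi.

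The structural chains were highest in LP MHCIIhi macrophages. H2-Aa, the alpha chain of I-A, had levels of 4180, 4985 and 5672 RPKM there and 4545, 2837 and 1977 RPKM in tumour MHCIIhi macrophages, and these groups overlapped. Its partner H2-Ab1 had 8834, 9670 and 10544 RPKM against 9517, 6119 and 3960 RPKM. The beta chain of I-E, H2-Eb1, had 7562, 8888 and 9384 RPKM against 7558, 5084 and 3438 RPKM, just short of overlap. The 10 genes together took 6.84 to 7.75% of all reads in LP MHCIIhi macrophages and 3.42 to 7.32% in tumour MHCIIhi macrophages, but 0.0317 to 0.0606% in tumour neutrophils. Cd74 alone accounted for 3.06 to 3.26% of reads in LP MHCIIhi macrophages. Cd74 and Ciita are encoded outside the class II region, on chromosomes 18 (60803848 to 60812652, plus strand) and 16 (10480059 to 10528418, plus strand).

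Below the MHCIIhi macrophages the chain levels of several populations could not be separated. H2-Ab1 in tumour MHCIIlow macrophages (2118, 1411 and 359 RPKM) overlapped with LP neutrophils (450, 349 and 788 RPKM), which overlapped with LP monocytes (406, 389 and 496 RPKM). LP MHCIIlow macrophages varied most, with 102, 715 and 411 RPKM, the first being donor II. The 359 RPKM among tumour MHCIIlow macrophages came from donor VII. These same libraries were the lowest of their groups for H2-Aa, H2-Eb1 and Cd74.

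Of the loading genes, H2-DMa and H2-DMb1 followed a different order from the chains they serve. H2-DMa, the alpha chain of H2-DM, was at 6.74, 7.80 and 17.3 RPKM in LP neutrophils, below every LP monocyte library (36.1, 39.3 and 52.8 RPKM), although H2-Aa was higher in every LP neutrophil library (325, 239 and 529 RPKM) than in any LP monocyte library (173, 168 and 216 RPKM). H2-DMb2, the second beta chain of H2-DM, went the other way, at 4.76, 5.40 and 10.7 RPKM in LP neutrophils and 0.682 to 2.17 RPKM in LP monocytes. H2-Ob, the beta chain of the inhibitor H2-O, was at 4.73, 5.67 and 5.59 RPKM in LP neutrophils and at 0.665 to 1.40 RPKM in LP monocytes. Expressed as a difference within a library, H2-DMb2 minus H2-DMb1 was -0.57 ± 0.05 log2 (SD, n = 3) in LP neutrophils and between -3.23 and -4.96 log2 on average in the other LP groups. Dendritic cell markers (9 genes) summed to 94.3 to 189 RPKM in LP neutrophils and 41.4 to 44.3 RPKM in LP monocytes. The part of dendritic cells in the LP neutrophil values was not tested.

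**Figure D2:**
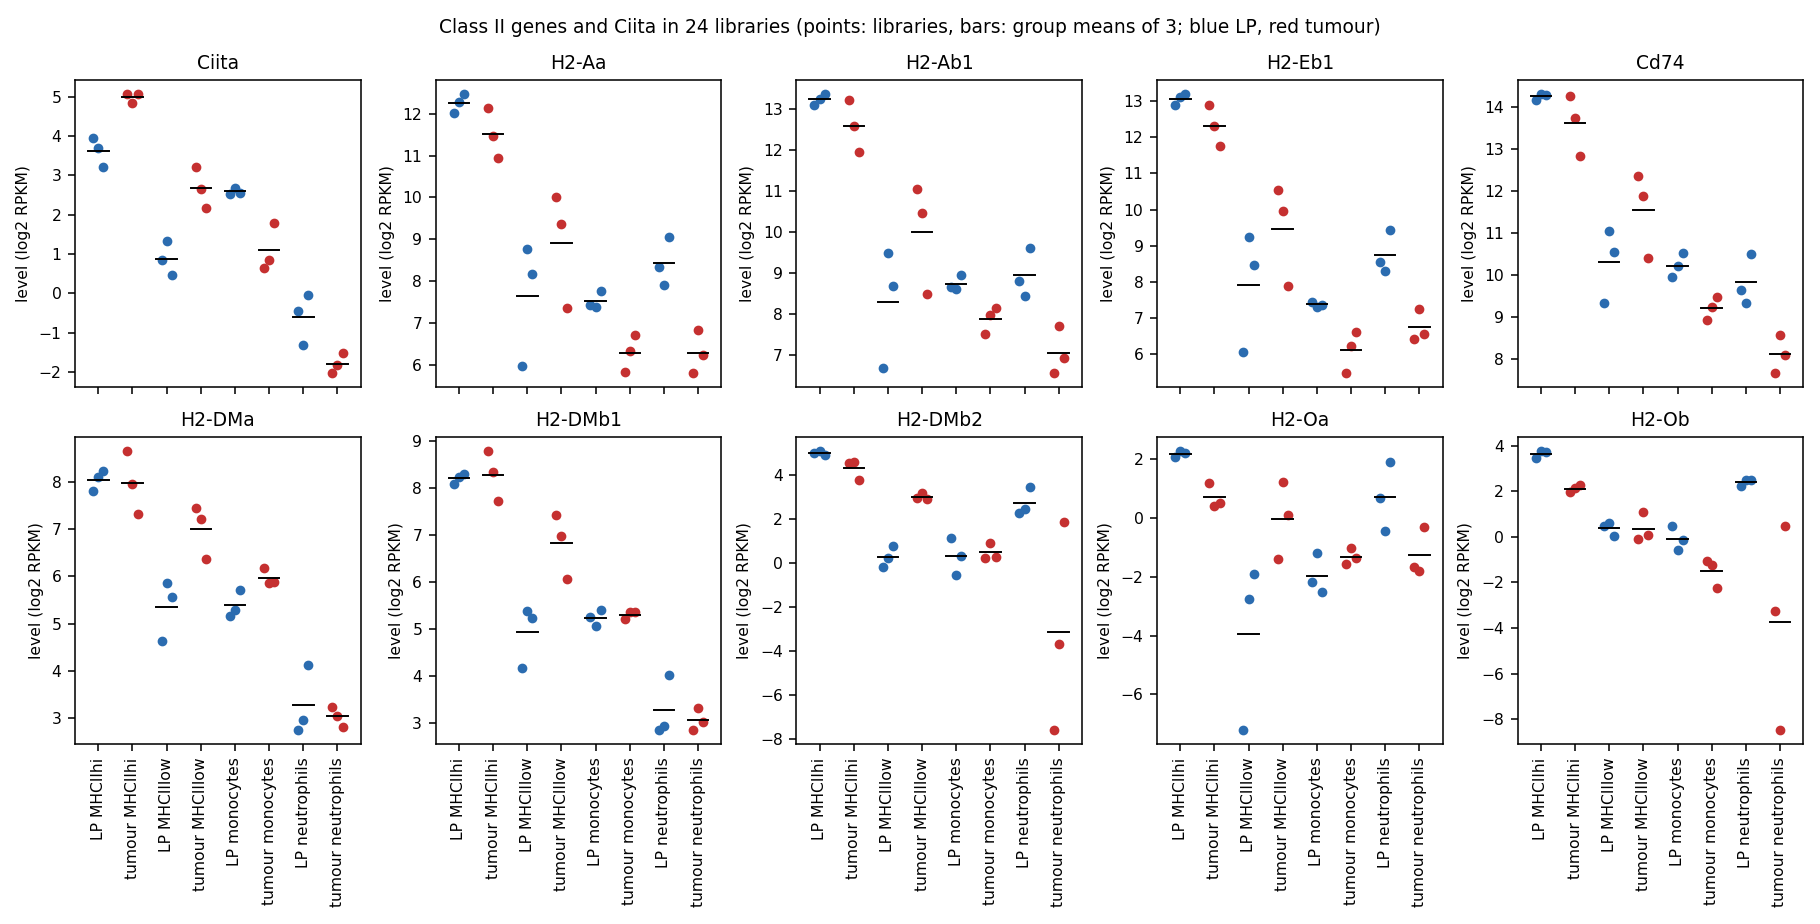
Levels of the 10 genes in 24 libraries, in log2 RPKM, with the 8 groups along the x axis. Points are libraries (blue LP, red tumour) and bars the means of 3; Ciita peaks in tumour MHCIIhi macrophages (mean 4.99), whereas H2-Aa, H2-Ab1, H2-Eb1 and Cd74 peak in LP MHCIIhi macrophages.

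Comparison of tumour with LP within each population asked how these genes differ between the tissues in cells sorted by the same markers. In MHCIIhi macrophages Ciita was higher in tumours, and it was the sole member called. The log2 fold change, tumour minus LP, was 1.37 ± 0.36 (SE, n = 3 per group, limma, adjusted p = 0.00943), a 2.59-fold difference, with all 3 tumour libraries above all LP libraries. In this comparison 8.01% of the genes tested were called higher and 11.5% lower. Without donor V of LP the Ciita difference was 1.16 (adjusted p = 0.0579). The median over the 10 members was -0.67, against 0 over all genes tested.

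The structural chains did not rise with Ciita in MHCIIhi macrophages. H2-Aa differed by -0.74 ± 0.61 (SE, limma, adjusted p = 0.463), H2-Ab1 by -0.66 ± 0.60 (adjusted p = 0.517), H2-Eb1 by -0.75 ± 0.64 (adjusted p = 0.481) and Cd74 by -0.65 ± 0.47 (adjusted p = 0.398). The mean of the 3 chains minus Ciita within a library was 8.72, 9.18 and 9.81 log2 in LP and 7.68, 7.28 and 6.48 log2 in tumours, without overlap. That difference was computed after the values had been seen and carries no test. MHCII protein, which includes the I-A chains encoded by H2-Aa and H2-Ab1, set the MHCIIhi gate in both tissues, whereas Ciita set none. H2-Eb1 encodes the beta chain of I-E, whose alpha chain C57BL/6 mice do not transcribe. Whether its product counted towards the gate was not tested. The part of the gate in the likeness of the chain levels was not tested. H2-DMa and H2-DMb1 lay at -0.07 ± 0.37 and 0.07 ± 0.35, with overlapping libraries.

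Both chains of the inhibitor H2-O were lower in every tumour MHCIIhi library than in any LP library. H2-Oa was at 4.20, 4.83 and 4.67 RPKM in LP and 2.31, 1.31 and 1.42 RPKM in tumours, a difference of -1.49 ± 0.99 log2 (SE, limma, adjusted p = 0.344). H2-Ob was at 11.0, 13.6 and 13.1 RPKM against 3.91, 4.38 and 4.84 RPKM, a difference of -1.52 ± 1.23 (adjusted p = 0.457). Neither passed the threshold, and how many of all genes tested separated likewise was not counted. The SE pools the spread of all 8 groups, including neutrophil libraries with 0 to 34 reads in H2-Ob, and with log2(RPKM + 1) the differences were -1.07 (adjusted p = 0.0105) and -1.33 (adjusted p = 0.00052). Dendritic cell markers moved alongside, with a summed level of 53.4 to 75.8 RPKM over 9 genes in LP and 10.3 to 18.7 RPKM in tumours. Of the 7 tested, 3 were called lower and none of the 9 was at 0 reads throughout either group. B cell markers summed to 16.2 to 21.3 and 18.9 to 28.8 RPKM, and T cell markers to 78.4 to 89.5 and 47.6 to 59.0 RPKM (6 genes, 0 of 3 tested called, Cd8a at 0 reads in both tissues). Monocyte markers summed to 22.4 to 25.6 and 22.8 to 40.6 RPKM, with 3 of 6 called lower and 1 higher, and epithelial markers to 5.10 to 14.9 and 7.52 to 62.9 RPKM, with 1 of 7 called higher. The part of such cells in the H2-O and Ciita values was not tested.

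In MHCIIlow macrophages the members were higher in tumours for the most part. Of the 10 members 5 were called higher in tumours and 0 lower, where 11.5% of all genes tested were called higher, and the median over the members was 1.69 against 0.06 over all genes. Ciita rose by 1.81 ± 0.36 (SE, limma, adjusted p = 0.000855). H2-DMa was at 24.9, 58.0 and 47.1 RPKM in LP and 175, 148 and 82.2 RPKM in tumours, a rise of 1.65 ± 0.37 (adjusted p = 0.00232). H2-DMb1 was at 18.1, 41.6 and 37.4 RPKM against 173, 126 and 67.1 RPKM, a rise of 1.90 ± 0.35 (adjusted p = 0.000424). In these 3 genes every tumour library exceeded every LP library, a separation that was not counted over all genes tested. The same held for H2-DMb2, at 0.865, 1.15 and 1.69 RPKM in LP and 7.69, 9.06 and 7.40 RPKM in tumours, which did not pass (2.76 ± 1.29, adjusted p = 0.138) but did in 7 of 18 alternatives, among them log2(RPKM + 1) with 2.03 and the fit without the tumour libraries of donor V with 2.67.

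The remaining calls in MHCIIlow macrophages rested on fewer or less even values. H2-Ab1 rose by 1.72 ± 0.60 (SE, limma, adjusted p = 0.0426), but its libraries overlapped, and the call held in 10 of 18 alternatives. It was 0.92 without donor II of LP, 2.48 without donor VII of the tumours and 1.49, no longer past the threshold, without the tumour libraries of donor V. H2-Aa and H2-Eb1 moved likewise, to 0.45 and 0.62 without donor II of LP and to 2.05 and 2.34, both past the threshold, without donor VII of the tumours. The count of 5 rose to 8 without donor III of LP or donor VII of the tumours. H2-Oa had 0, 4 and 6 reads in the LP libraries and 13, 133 and 39 in the tumour libraries, so its fitted difference of 3.93 ± 0.99 (adjusted p = 0.00615) depends on the value given to 0 reads. It was 0.90 with log2(RPKM + 1), and 3.31 (adjusted p = 0.0612) without the tumour libraries of donor V. H2-Aa (1.28 ± 0.61, adjusted p = 0.144), H2-Eb1 (1.55 ± 0.64, adjusted p = 0.09) and Cd74 (1.23 ± 0.47, adjusted p = 0.0688) did not pass, and H2-Ob lay at -0.03 ± 1.23. Summed neutrophil markers were 23.4 to 35.0 RPKM in LP and 46 to 51 RPKM in tumours (7 genes, 3 called higher, Ly6g at 0 reads in LP), and dendritic cell markers 10.9 to 22.2 and 5.69 to 7.79 RPKM (1 of 7 tested called lower, Flt3 at 0 reads in LP and Cd209a in tumours). Monocyte markers summed to 7.54 to 26.4 RPKM in LP and 39.6 to 94.6 RPKM in tumours (6 genes, 1 called higher and 1 lower), and T cell markers to 35.6 to 60.2 and 22.5 to 30.2 RPKM (0 of 3 tested called). Their part in these values was not tested, and the place of the MHCIIlow gate in each tissue was not compared here.

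In monocytes the direction of Ciita was opposite to that in both macrophage populations. Ciita fell by 1.5 ± 0.36 (SE, limma, adjusted p = 0.0104), a 2.83-fold difference, and was the sole member called, where 4.43% of genes tested were called lower and 4.86% higher. Without donor I of the tumours the difference was -1.27 (adjusted p = 0.0633), and without donor V of the tumours it was -1.85. H2-Aa was at 173, 168 and 216 RPKM in LP and 56.5, 80.2 and 104 RPKM in tumours, a difference of -1.24 ± 0.61 (adjusted p = 0.234). Ciita, the 3 structural chains, Cd74 and H2-Ob were lower in every tumour library than in any LP library, and of these only Ciita was called. How many of all genes tested did likewise was not counted. The median over the 10 members was -0.94 against 0 over all genes. H2-DMa was higher in every tumour library, at 72.2, 58.1 and 58.6 RPKM against 36.1, 39.3 and 52.8 RPKM, a difference of 0.57 ± 0.37 (adjusted p = 0.397), and H2-DMb1 differed by 0.06 ± 0.35. Summed dendritic cell markers were 41.4 to 44.3 RPKM in LP and 10.8 to 31.0 RPKM in tumours, with 0 of 7 called and 2 at an unadjusted p under 0.05. Summed epithelial markers were 24 to 139 and 103 to 314 RPKM, with 2 of 7 called higher. Their part in the class II values was not tested.

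Neutrophils held the most calls. Of the 10 members 7 were called lower in tumours and 0 higher, where 19% of all genes tested were called lower, and the median over the members was -1.95 against -0.12 over all genes. H2-Aa fell by 2.14 ± 0.61 (SE, limma, adjusted p = 0.0106), from 325, 239 and 529 RPKM to 56.1, 114 and 75.5 RPKM. H2-Ab1 fell by 1.90 ± 0.60 (adjusted p = 0.0198), H2-Eb1 by 2.02 ± 0.64 (adjusted p = 0.0205) and Cd74 by 1.71 ± 0.47 (adjusted p = 0.00932). Ciita fell by 1.18 ± 0.36 (adjusted p = 0.0158), a call that held in 8 of 16 alternatives. These 5 genes were lower in every tumour library than in any LP library, but how many of all genes tested did likewise was not counted. The count of 7 fell to 2 without donor V of LP and to 4 without donor I of the tumours. Without the tumour libraries of donor V it was 5, and H2-Ab1 (-1.83) and H2-Eb1 (-1.92) no longer passed. Another scaling of the libraries moved the median of all genes in this comparison by 0.15 (quantile normalisation) or 0.24 (centring on the median).

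Loading genes split in the neutrophils. H2-DMa (9.48, 8.23 and 7.07 RPKM in tumours) and H2-DMb1 (7.24, 9.93 and 8.17 RPKM) overlapped with LP and differed by -0.24 ± 0.37 and -0.20 ± 0.35 (SE). H2-DMb2 had 0, 1 and 47 reads in the tumour libraries, the 47 in donor V, against 4.76, 5.40 and 10.7 RPKM in LP. H2-Ob had 4, 0 and 34 reads, the 34 again in donor V, against 4.73, 5.67 and 5.59 RPKM. Their fitted differences of -5.85 ± 1.29 (limma, adjusted p = 0.00172) and -6.16 ± 1.23 (adjusted p = 0.000771) depend on the value given to 0 reads. With log2(RPKM + 1) they were -2.15 and -2.19, and without the tumour libraries of donor V -8.35 and -8.28.

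Markers of other antigen-presenting cells moved with the neutrophil values. Dendritic cell markers summed to 94.3 to 189 RPKM in LP neutrophils and 2.75 to 21.5 RPKM in tumour neutrophils, with 4 of 7 called lower and none of the 9 at 0 reads throughout either group. B cell markers summed to 9.21 to 23.0 and 1.02 to 13.5 RPKM, the 13.5 in donor V, with 1 of 5 called lower. Neutrophil markers summed to 11600 to 15080 and 21650 to 30620 RPKM, with 0 of 7 called. Epithelial markers summed to 13.2 to 58.8 RPKM in LP and 154 to 308 RPKM in tumours, with 2 of 7 called higher, and eosinophil markers to 21.7 to 42.2 and 20.6 to 30.8 RPKM, with 0 of 2 tested called. In bulk libraries fewer cells of a type and less RNA per cell cannot be told apart, and the part of dendritic, B and epithelial cells in the class II values was not tested.

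**Figure D3:**
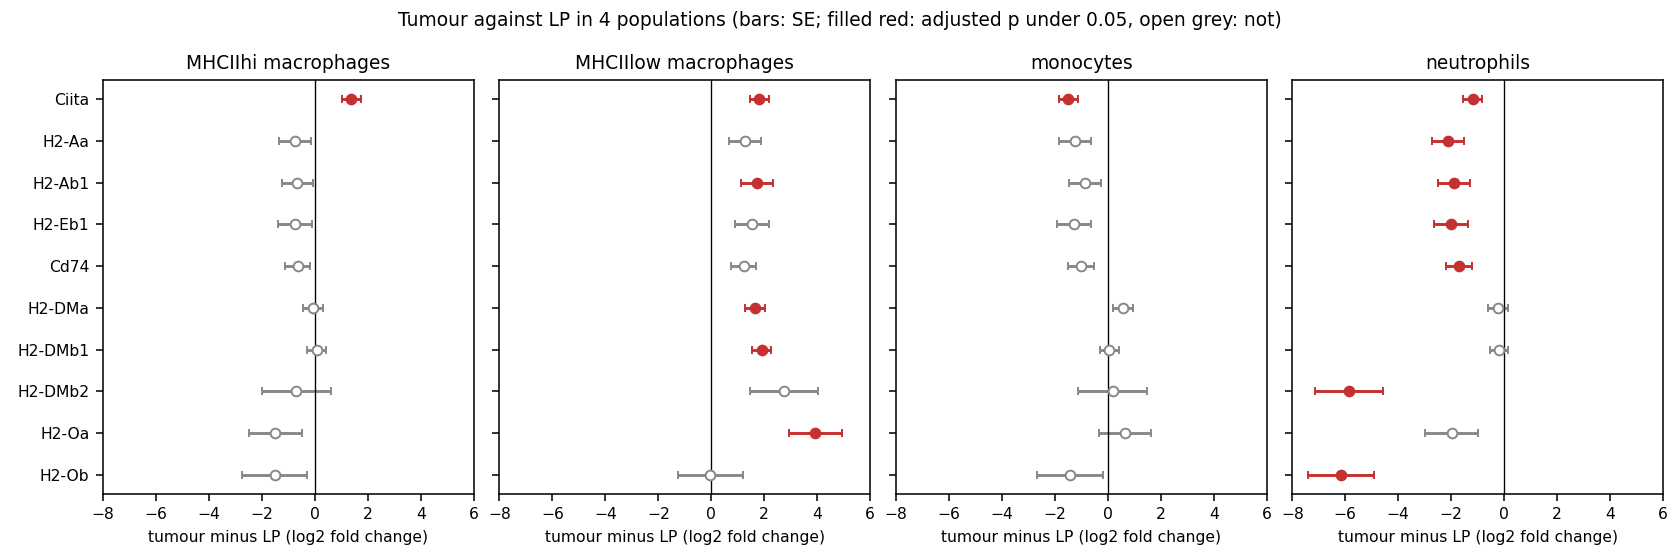
Log2 fold change, tumour minus LP, of the 10 genes in the 4 populations (x axis), with SE bars and n = 3 libraries per group; filled red points had an adjusted p under 0.05 (limma), open grey points did not. Ciita lies right of 0 in both macrophage populations (1.37 and 1.81) and left of 0 in monocytes (-1.5) and neutrophils (-1.18).

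Whether the tissue difference itself differed between populations was tested as an interaction, with the same libraries entering more than 1 such test. Ciita in monocytes minus MHCIIhi macrophages gave -2.87 ± 0.51 (SE, limma, adjusted p = 0.00148), where 5.76% of genes tested were called in either direction, and the adjusted p lay between 2.96e-05 and 0.00731 over 24 alternatives. It was the sole member called there. H2-Aa gave -0.51 ± 0.86 in the same interaction and Cd74 -0.36 ± 0.67. MHCIIlow minus MHCIIhi macrophages gave 0 calls among the members (1.46% of all genes), with 7 of 10 at an unadjusted p under 0.05 and 4 called by voom. H2-DMb1 gave 1.83 ± 0.49 (adjusted p = 0.0681) and, with donor as a fixed replicate block, 1.28 (adjusted p = 0.0488), which made it the 1 call of that fit. The count was 1 or 2 without any 1 of 4 MHCIIlow libraries (LP donors III and IV, tumour donors I and VII). In neutrophils minus monocytes H2-DMb2 was the sole call (-6.03 ± 1.82, adjusted p = 0.0429, 9.11% of all genes), and it held in 10 of 24 alternatives, with adjusted p between 3.55e-05 and 0.16. It was lost with donor as a fixed replicate block (adjusted p = 0.0563) and without any 1 of 11 of the 12 libraries, donor V of the tumour neutrophils being the exception.

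The gates were visible in the RNA. Within LP 9 of the 10 members were called lower in MHCIIlow than in MHCIIhi macrophages (5.57% of genes tested were called lower and 2.13% higher), and within tumours 6 were (0.567% in each direction). H2-Eb1 was lower by 5.15 ± 0.64 log2 (SE, limma) in LP and 2.85 ± 0.64 in tumours, and Ciita by 2.74 ± 0.36 and 2.3 ± 0.36. The LP difference of H2-Eb1 was -4.22 without donor II of the MHCIIlow macrophages and -4.09 with donor as a fixed replicate block, past the threshold in both. The loading gene H2-DMa was lower by 2.70 ± 0.37 in LP, whereas in tumours its libraries overlapped (-0.97 ± 0.37, limma, adjusted p = 0.256). The tumour count fell to 1 without donor V in either population, without donor I of the MHCIIhi or donor VII of the MHCIIlow macrophages, and to 3 without donor VII of the MHCIIhi macrophages. With donor as a fixed replicate block H2-DMa passed in tumours (adjusted p = 0.0108) and H2-DMb2 did not in LP (-4.40, adjusted p = 0.121).

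Differences between members within a library do not depend on library scaling. Over the 12 macrophage libraries 4 such differences were each tested for tissue and for MHCII level by an exact permutation test within strata (8 tests, two-sided, smallest possible p 0.005). Cd74 minus the mean of the structural chains was 1.40 ± 0.11 log2 (SD, n = 3) in LP MHCIIhi, 2.37 ± 0.63 in LP MHCIIlow, 1.47 ± 0.17 in tumour MHCIIhi and 2.08 ± 0.36 in tumour MHCIIlow macrophages. It was 0.79 higher in MHCIIlow macrophages (exact p = 0.005, adjusted p = 0.04), and every MHCIIlow library exceeded every MHCIIhi library. Of the chains, H2-Aa and H2-Ab1 encode I-A, a form of the MHCII protein used for sorting. MHCIIhi and MHCIIlow libraries of the same donor formed 5 pairs, and with relabelling only within pairs the difference was 0.58 (higher in 5 of 5 pairs, exact p = 0.0625, the smallest that 32 relabellings allow), so that design could not pass. Without donor V of the tumours the difference was 0.87, at the smallest exact p of that design (0.0167), which is too large for a call over 8 tests. The call was also lost without donor IV or V of the LP or donor I or VII of the tumour MHCIIhi macrophages, each left out in turn. For tissue it was -0.11 (exact p = 0.68).

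The other differences did not pass. H2-Aa minus H2-Ab1 was lower in tumours by 0.26 (exact p = 0.015, adjusted p = 0.06). H2-DMa minus H2-Oa, loading catalyst over inhibitor chain, was 5.86 ± 0.14 log2 (SD, n = 3) in LP MHCIIhi and 7.27 ± 0.40 in tumour MHCIIhi macrophages, without overlap, but 9.31 ± 2.27 and 7.04 ± 1.57 in MHCIIlow macrophages, where H2-Oa had few reads. Its tissue difference over both was -0.43 (exact p = 0.74). H2-DMb2 minus H2-DMb1 differed by 0.05 between tissues (exact p = 0.895) and by -0.64 between MHCII levels (exact p = 0.095).

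**Figure D4:**
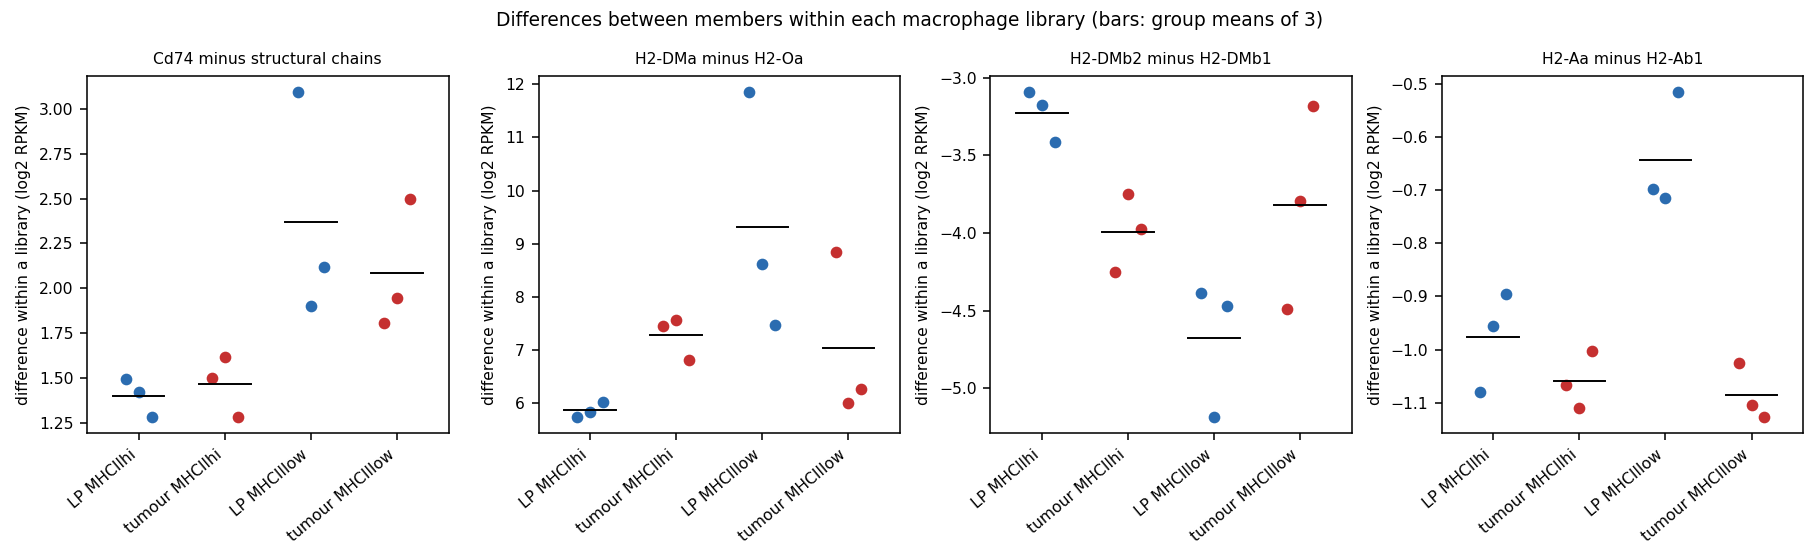
Differences between members within each of 12 macrophage libraries, in log2 RPKM; points are libraries and bars the means of 3, for LP and tumour, MHCIIhi and MHCIIlow. Cd74 minus the structural chains lies higher in MHCIIlow (means 2.37 and 2.08) than in MHCIIhi macrophages (1.40 and 1.47).

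Levels of Ciita did not order the chains across populations. LP neutrophils had chain means of 8.21 to 9.37 log2 RPKM at Ciita levels of -1.33 to -0.05, whereas LP monocytes had 7.77 to 8.02 at Ciita levels of 2.53 to 2.68. Chains minus Ciita averaged 9.32 ± 0.28 log2 (SD, n = 3) in LP neutrophils and 5.29 ± 0.19 in LP monocytes. Tumour neutrophils (8.49 ± 0.53) and tumour monocytes (5.66 ± 0.32) stood in the same order. These differences carry no test, for they were chosen after the values had been seen. Monocytes were gated as negative for MHCII. Dendritic cell markers summed to 94.3 to 189 RPKM in LP neutrophils and 41.4 to 44.3 RPKM in LP monocytes, and B cell markers to 9.21 to 23.0 and 1.75 to 3.98 RPKM. Macrophage markers went the other way, at 192 to 227 and 628 to 807 RPKM. In LP MHCIIhi macrophages chains minus Ciita was 9.24 ± 0.55. The part of other cells and of the gates in these values was not tested.

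**Figure D5:**
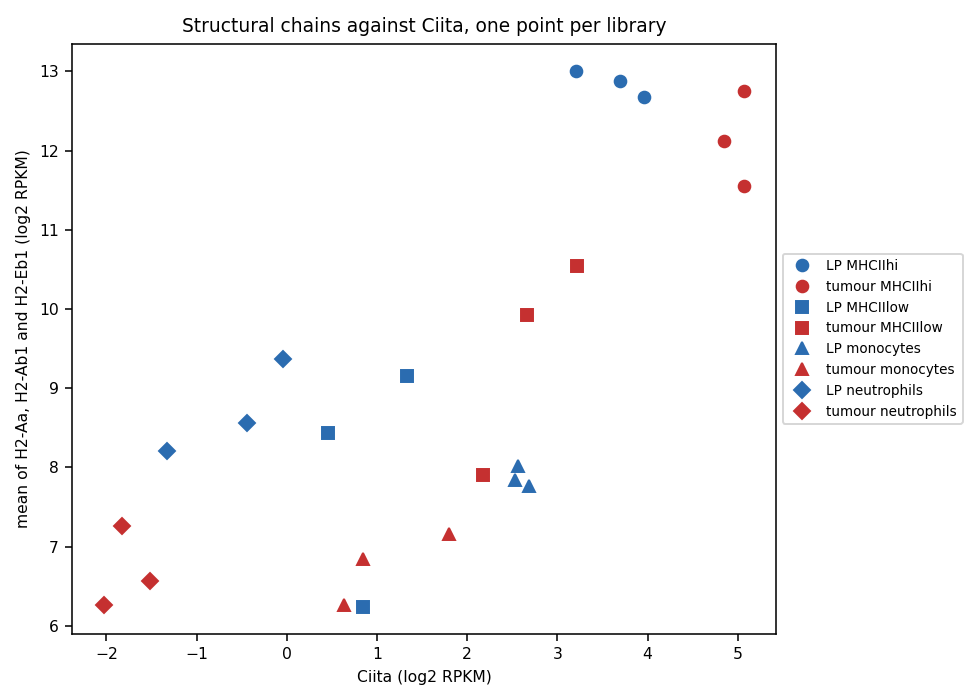
Mean of H2-Aa, H2-Ab1 and H2-Eb1 (y axis, log2 RPKM) against Ciita (x axis, log2 RPKM), with 1 point per library, blue LP and red tumour. LP neutrophils lie above LP monocytes although their Ciita level is lower, and tumour MHCIIhi macrophages lie right of LP MHCIIhi macrophages without lying higher.

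Genes around the pathway were followed in lists chosen by role. Their counts stand beside the shares of all genes tested that were called higher and lower, which were 8.01% and 11.5% in MHCIIhi macrophages, 11.5% and 11.8% in MHCIIlow macrophages, 4.86% and 4.43% in monocytes, and 13.1% and 19% in neutrophils. Of 7 DNA-binding factors of class II promoters, which recruit Ciita, 0 rose and 2 fell in tumour MHCIIhi macrophages, 1 rose and 1 fell in MHCIIlow macrophages, 0 were called in monocytes (1 at an unadjusted p under 0.05) and 1 rose and 2 fell in neutrophils. Nfyb, a subunit of NF-Y, fell by 1.69 ± 0.22 (SE, limma, adjusted p = 1.22e-05) in MHCIIlow macrophages. The RFX subunit Rfxank rose there by 0.92 ± 0.32 (adjusted p = 0.0401), a call lost without 5 of the 6 libraries in turn, and its partners Rfxap (1.83 ± 0.66, adjusted p = 0.0507) and Rfx5 (3.10 ± 1.31, adjusted p = 0.0963) were higher in every tumour library without passing. In neutrophils Rfx5 differed by -3.54 ± 1.31 (adjusted p = 0.0438), but its libraries overlapped and the tumour libraries had 0, 7 and 21 reads. Creb1, which also binds class II promoters, rose by 0.71 ± 0.21 in neutrophils (adjusted p = 0.0153).

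A list of 11 genes held the interferon gamma path to Ciita, its inhibitor Socs1 and myeloid factors. Of these 11, 1 rose and 4 fell in tumour MHCIIhi macrophages, and 5 rose and 3 fell in MHCIIlow macrophages. In monocytes 0 rose and 2 fell, and in neutrophils 0 rose and 4 fell. The receptor chain Ifngr1 was at 42.1, 44.5 and 43.6 RPKM in LP MHCIIlow macrophages and 133, 136 and 126 RPKM in the tumour libraries, a rise of 1.60 ± 0.15 (SE, limma, adjusted p = 2.45e-07). In MHCIIhi macrophages Ifngr1 rose by 0.82 ± 0.15. The receptor kinase Jak2 fell in MHCIIhi macrophages, from 19.6, 22.7 and 25.6 RPKM to 6.89, 8.18 and 6.92 RPKM, by 1.62 ± 0.18 (adjusted p = 1.79e-06). Socs1, an interferon-induced inhibitor of these kinases, fell by 2.42 ± 0.36 in neutrophils (adjusted p = 3.8e-05) and by 2.04 ± 0.36 in both macrophage populations. Usf1, a factor that acts at a Ciita promoter, fell by 1.88 ± 0.24 in neutrophils (adjusted p = 9.85e-06).

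A list of 8 genes held factors, and members of pathways, known to lower Ciita transcription. Of these 8, 2 rose and 1 fell in tumour MHCIIhi macrophages, and 1 rose and 3 fell in MHCIIlow macrophages. In monocytes 3 rose and 0 fell, and in neutrophils 1 rose and 3 fell. The interleukin Il10 fell by 2.52 ± 0.39 (SE, limma, adjusted p = 8.35e-05) in MHCIIlow macrophages, from 236, 79.5 and 101 RPKM to 34.7, 18.5 and 15.6 RPKM, and rose by 1.32 ± 0.39 (adjusted p = 0.039) in monocytes, a call lost without any 1 of the 6 libraries. The repressor Zbtb32 was at 10.9, 13 and 12.5 RPKM in LP MHCIIhi macrophages and 0.329, 0.310 and 0.0768 RPKM in the tumour libraries, a fall of 5.93 ± 1.16 log2 (adjusted p = 0.00102). It also fell in MHCIIlow macrophages by 4.28 ± 1.16 (adjusted p = 0.0104) and in neutrophils by 7.17 ± 1.16 (adjusted p = 0.000103), the latter value depending on 8, 0 and 0 reads in the tumour libraries. The TGF-beta receptor chain Tgfbr2 rose by 1.17 ± 0.21 in MHCIIhi macrophages (adjusted p = 0.000373), and its partner Tgfbr1 fell by 1.14 ± 0.17 in neutrophils (adjusted p = 4.34e-05).

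Of 7 endosomal genes of class II processing, which encode proteases and a thiol reductase, 4 rose and 0 fell in tumour MHCIIlow macrophages. The thiol reductase Ifi30 rose by 1.09 ± 0.27 (SE, limma, adjusted p = 0.0053) and the protease Ctsh by 0.88 ± 0.19 (adjusted p = 0.00201). The proteases Ctsl (-0.53 ± 0.22, adjusted p = 0.0921) and Ctsb (-0.23 ± 0.15, adjusted p = 0.307) were lower in every tumour library without passing, and were named after their values had been seen. In MHCIIhi macrophages 1 rose and 0 fell. In monocytes 0 rose and 3 fell, and in neutrophils 1 rose and 3 fell, with the asparagine-specific protease Lgmn falling by 1.98 ± 0.15 (adjusted p = 4.03e-08) and the protease Ctsd by 0.95 ± 0.17 (adjusted p = 0.000302) in neutrophils. Of 5 genes of class II turnover, 1 rose and 0 fell in MHCIIhi macrophages and in monocytes, 0 rose and 1 fell in MHCIIlow macrophages, and 2 rose and 2 fell in neutrophils. The gene that rose was Cd83 in both cases, which opposes class II ubiquitination. It rose by 1.16 ± 0.25 (SE, limma, adjusted p = 0.00243) in MHCIIhi macrophages and by 1.00 ± 0.25 (adjusted p = 0.0147) in monocytes. The ubiquitin ligase March8 fell by 1.67 ± 0.25 (adjusted p = 5.07e-05) and Cd83 by 1.52 ± 0.25 (adjusted p = 0.00012) in neutrophils. The ubiquitin-conjugating enzyme Ube2d1 rose by 1.34 ± 0.29 there (adjusted p = 0.00165), and the endocytic adaptor Ap2m1 fell by 0.58 ± 0.16 in MHCIIlow macrophages (adjusted p = 0.0104).

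Costimulatory genes, whose products act beside the class II peptide complex, fell in part. Of 4 genes 0 rose and 2 fell in both macrophage populations, 1 rose in monocytes, and 1 rose and 2 fell in neutrophils. Cd40 was at 60.4, 73.2 and 74.7 RPKM in LP MHCIIhi macrophages and 17.8, 13.5 and 11.1 RPKM in the tumour libraries, a fall of 2.32 ± 0.35 (SE, limma, adjusted p = 8.02e-05). It fell by 1.97 ± 0.35 in MHCIIlow macrophages and by 2.37 ± 0.35 in neutrophils. Cd86 fell by 0.98 ± 0.15 in MHCIIhi macrophages (adjusted p = 8.65e-05) and by 0.57 ± 0.15 in MHCIIlow macrophages (adjusted p = 0.00795). Cd80 rose by 0.96 ± 0.22 in monocytes (adjusted p = 0.00876). Of 5 further genes of the class II locus 2 were in the table, and H2-Eb2 was called lower in neutrophils, on 0, 6 and 0 reads in the tumour libraries. Without the tumour libraries of donor V the calls of Rfxank and Cd86 in MHCIIlow macrophages, Il10 in monocytes and Creb1 and H2-Eb2 in neutrophils were lost.

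Over the 24 libraries the genes whose log2 RPKM most resembled the mean of H2-Aa, H2-Ab1, H2-Eb1 and Cd74 were Mrtfa (Pearson's r = 0.88), Tnfrsf21 (0.88), Dnase1l3 (0.88), Rgs1 (0.87) and Pik3r1 (0.87). Those most like Ciita were Itm2c (0.94), Eprs (0.92), Acp2 (0.92), Cxcl16 (0.92) and B3gnt8 (0.92). These were the highest among 5650 genes with at least 10 RPKM in a group. The 24 points share 8 groups, so the values describe the contrast between populations.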

How the data were processed

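Of each library, the authors deposited log2 RPKM values. Per the labels and the methods, reads of 2 x 51 bases from Smart-seq2 libraries were aligned with STAR 2.3 to GRCm38 (mm10), counted with featureCounts 1.5 against GENCODE and filtered for low counts. The deposited log2 values resolved into whole reads for 100% of 415224 values (tolerance 0.001 read), with a mean of 0.25 reads added, so a gene at 0 reads has a finite log2 value. Read numbers and depths come from that step. Symbols were found for 17190 of 17301 gene IDs through GENCODE M21.

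Genes whose group mean reached 1 RPKM anywhere (12878) were fitted over all 24 libraries with limma 3.58.1 (R 4.3.3; 8 group means, variance trend), and p-values were Benjamini-Hochberg adjusted over these genes, with a threshold of 0.05. The fit was tested on simulated data. Within-library differences were tested exactly (Python 3.11.15). The members, lists and tests were chosen with earlier results of these data known. The text names all members, up to 4 genes of each pathway list with the largest difference among those called for tumour against LP, Rfx5, Rfxap, Rfxank, H2-Ea-ps and sorting markers whatever their values, and the 5 genes most like the chains with Cd74 and the 5 most like Ciita. Markers of 8 cell types were summed per library.

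The labels give a donor to each library, so that libraries of 1 donor within a tissue are paired. Over 29 such pairs deviations from the group means correlated between -0.066 and 0.255 (median 0.017). Donor entered as a replicate block only in alternatives, as a fixed term (within tissue and in interactions) or a random one. Further alternatives were other added constants, filters, scalings, library subsets and weights, voom on the recovered reads, and leaving out each library. Leaving out the tumour libraries of donor V and pairing libraries of a donor in the exact tests were added after the data had been seen.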

Additional observations from a re-analysis of the deposited data

Results flagged for a closer look

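The difference between tumour and LP itself differed between populations for 2 of the 10 genes, by an interaction in limma. Ciita in monocytes minus MHCIIhi macrophages gave -2.87 log2 (adjusted p = 0.00148), where 5.76% of all genes tested were called. It was higher in 3 of 3 tumour libraries of the macrophages and lower in 3 of 3 of the monocytes. H2-DMb2 in neutrophils minus monocytes gave -6.03 log2 (adjusted p = 0.0429), where 9.11% of all genes tested were called. In each interaction 1 call among 10 members is close to that share. The H2-DMb2 call held in 10 of 24 alternatives, and its value rests on tumour neutrophil libraries with 0, 1 and 47 reads. Groups of 3 libraries were too small for a test of single outlying samples.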

How the results depend on the processing

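None of 31 called member values changed direction in any alternative, 14 kept their call in all and 17 lost it in some. Tumour against LP, the 1 call in MHCIIhi macrophages became 3 with log2(RPKM + 1), 4 with only the libraries compared, 2 with only the 12 macrophage libraries and 4 with voom (0 to 1 when leaving out a library). The 5 in MHCIIlow macrophages became 8 with voom (4 to 8), the 1 in monocytes 2 with quantile normalisation and 5 with only the libraries compared (0 to 1), and the 7 in neutrophils 3 with array weights (2 to 7). The 6 between MHCII levels in tumours became 1, 2 and 1 with only the libraries compared, only the macrophages and no tumour donor V (1 to 6). For the tumour effect in MHCIIlow minus MHCIIhi macrophages 0 calls became 4 with log2(RPKM + 1), 1 with log2(RPKM + 0.1), 1 with a mean RPKM of at least 5, 2 with quantile normalisation, 1 with only the libraries compared, 1 with only the macrophages, 3 with array weights, 1 with donor as fixed replicate block and 4 with voom (0 to 2). For neutrophils minus monocytes 1 call became 2 with log2(RPKM + 1), log2(RPKM + 0.1), array weights, voom or no tumour donor V, and 0 with quantile normalisation, only the libraries compared or the fixed replicate block (0 to 2). The fixed block changed no other call of the 10 genes than those given with the results, the random block none. Among uncalled values, H2-DMa in MHCIIhi macrophages was 0.12 with quantile normalisation (-0.41 to 0.25), H2-DMb1 there -0.18 to 0.35, H2-Ob in MHCIIlow macrophages 0.15 with array weights and 0.035 with voom (-0.39 to 0.19), H2-DMb1 and H2-DMb2 in monocytes -0.023 to 0.15 and -0.24 to 0.59, and H2-DMa and H2-DMb1 in neutrophils 0.0021 and 0.041 after centring (-0.50 to 0.18 and -0.41 to 0.17). With log2(RPKM + 1), H2-DMa minus H2-Oa was 0.86 for tissue (-0.89 to 0.20) and -0.51 for MHCII level, and H2-DMb2 minus H2-DMb1 was -0.28 for tissue, or -0.02 without tumour donor V (-0.11 to 0.21). Cd74 minus the chains was -0.23 to 0.0702 for tissue and 0.61 to 0.91 for MHCII level, where 0.87 without tumour donor V and 0.58 with donor pairs as replicate block come from designs too small to pass, and H2-Aa minus H2-Ab1 -0.29 to -0.23. The causes were not tested. Fold sizes of H2-Oa in MHCIIlow macrophages and of H2-DMb2 and H2-Ob in neutrophils are limited by libraries with 0 reads.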

Other observations

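The tumour libraries of donor V differed from the other tumour libraries at further genes of the MHC region, a description made after the values had been seen. Genes were ordered by the smallest of 4 gaps on the log2(RPKM + 0.1) scale, each between the donor V library of a population and the higher of its other tumour libraries. Of 17301 genes 240 (1.39%) were higher in donor V in all 4 populations and 227 were lower in all 4. H2-Ea-ps came first with a smallest gap of 2.73, followed by Gm10499 (chr17:36141758-36145923) with 2.06 and the class I gene H2-Q2 (chr17:35342242-35346762) with 1.66, which also lie on chromosome 17. H2-Q2 was at 1.44 RPKM in MHCIIhi macrophages, 0.486 in MHCIIlow macrophages, 2.39 in monocytes and 7.29 in neutrophils of donor V. The B cell gene Ms4a1 and the mast cell gene Cpa3 came next. In the other direction 3 of the 5 leading genes, Gm4017, Ddx3y and Kdm5d, lie on the Y chromosome, Ddx3y with a smallest gap of 1.37.

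Macrophage markers (8 genes) summed to 3969 to 5169 RPKM in LP and 5105 to 7455 RPKM in tumour MHCIIhi macrophages. The neutrophils lay between 192 and 270 RPKM. Monocyte markers summed to 449 to 606 RPKM in LP monocytes and 740 to 983 RPKM in tumour monocytes, with 0 of 6 called.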
